A study of Homo sapiens with 8 samples.

Results

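Chromatin accessibility at promoters of long non-coding RNA (lncRNA) genes was examined in MCF10A, an established, immortalised and non-tumorigenic human mammary epithelial line, here unmodified (wild type). ATAC-seq, in which a transposase tags DNA free of nucleosomes, had been carried out on cells given solvent (labelled as time 0) or 5 ng/ml TGFβ1 for 6, 24 or 72 h, with 2 replicates per condition and 8 libraries in all. The deposited data were 4 peak lists, 1 per condition, each called on both replicates together, so that differences between conditions could not be set against replicate error and carry no p-value. Of the epithelial and basal marker genes, CDH1, EPCAM, KRT5, KRT14, KRT17, TP63 and ITGB4 each had a solvent peak within 1 kb of a TSS.

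Peaks of the 4 lists that shared at least 1 bp were merged into 126658 regions. A region was taken as a lncRNA promoter when it lay within 1 kb of a transcription start site (TSS) of a GENCODE 44 gene of type lncRNA and over 5 kb from every protein-coding TSS. This left 3741 regions, 2.95% of all. Of 8180 regions within 1 kb of a lncRNA TSS, the 4439 others had a protein-coding TSS within 5 kb and were set aside, among them the promoters of many divergent and antisense lncRNAs. The 3741 regions were named for 2903 genes, of which 1211 had a gene symbol and the rest an identifier only. In all, 13008 of the 18866 annotated lncRNA genes had a TSS over 5 kb from protein-coding ones, and 24.0% of these had at least 1 such region. A TSS lay inside 52.5% of the regions, and 60.4% lay at the 5′ end of the gene record rather than at an inner TSS. The median distance to the nearest protein-coding TSS was 41.8 kb, and 17.7% of the regions were inside the body of a protein-coding gene. The regions are therefore a mixture of gene starts and of accessible sites beside an annotated start. Comparison sets were 22232 protein-coding promoters (within 1 kb of a protein-coding TSS) and 77983 distal regions (over 5 kb from every protein-coding and every lncRNA TSS).

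lncRNA genes give transcripts that are often spliced and polyadenylated but code for no known protein, and most are transcribed by RNA polymerase II from promoters of their own. Accessible DNA at such a start site can be a promoter in the usual sense or an enhancer from which a non-coding transcript starts, and peak position alone does not tell these apart. lncRNAs include hosts of microRNAs and small nucleolar RNAs, antisense transcripts of protein-coding genes and nuclear scaffold RNAs such as NEAT1 and MALAT1. Several are known from epithelial cells or from the epithelial-mesenchymal transition (EMT), in which epithelial cells lose contacts and take on a migratory form and which the cytokine TGFβ1 drives in mammary cells.

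The summit, the highest point of the strongest peak of a region, and the 100 bp on either side of it are shown for 8 regions that stand for the courses described further on and were chosen after their values had been seen. All are given on the plus strand of GRCh38, as read from the hg38 sequence. Capitals mark exact matches on either strand to 1 of 8 motifs, whose letters on one strand are TGACTCA (AP-1), CACCTG (the E-box that SNAIL and ZEB proteins bind), GTCTAGAC (SMAD), ACATTCC (TEAD), CCGGAAG (ETS), GGGCGGG (SP/KLF), TTGCGCAA (C/EBP) and AGCCAAT (NF-Y). No motif contains another. The first 3 regions had no solvent peak and a peak at every TGFβ1 time, at LINC00607 (chr2:215660763-215660963), LINC01036 (chr1:187070147-187070347) and MYOSLID (chr2:207241322-207241522). The fourth, at DLEU1 (chr13:50396154-50396354), had a peak in every list and a far higher one under TGFβ1. The next 3 were lower or without a peak at 72 h, at LINC02970 (chr20:62603239-62603439), LINC01985 (chr3:30518209-30518409) and PITX1-AS1 (chr5:135337223-135337423). The last, at DANCR (chr4:52712219-52712419), is a CpG-rich promoter that was open in every list.
LINC00607: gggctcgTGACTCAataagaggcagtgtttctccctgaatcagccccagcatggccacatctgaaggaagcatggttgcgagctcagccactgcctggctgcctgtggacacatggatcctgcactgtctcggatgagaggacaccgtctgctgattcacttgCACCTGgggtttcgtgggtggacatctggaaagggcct
LINC01036: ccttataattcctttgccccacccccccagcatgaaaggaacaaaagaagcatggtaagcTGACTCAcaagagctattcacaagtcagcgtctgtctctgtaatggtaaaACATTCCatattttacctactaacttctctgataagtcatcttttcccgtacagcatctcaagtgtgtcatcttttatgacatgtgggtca
MYOSLID: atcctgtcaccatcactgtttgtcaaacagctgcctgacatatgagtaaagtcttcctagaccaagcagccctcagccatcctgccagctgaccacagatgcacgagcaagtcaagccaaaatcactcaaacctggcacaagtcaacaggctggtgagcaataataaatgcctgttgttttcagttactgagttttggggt
DLEU1: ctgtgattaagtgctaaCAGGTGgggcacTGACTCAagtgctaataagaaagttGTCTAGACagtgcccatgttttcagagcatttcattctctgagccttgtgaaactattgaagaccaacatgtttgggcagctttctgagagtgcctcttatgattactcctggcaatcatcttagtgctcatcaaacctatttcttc
LINC02970: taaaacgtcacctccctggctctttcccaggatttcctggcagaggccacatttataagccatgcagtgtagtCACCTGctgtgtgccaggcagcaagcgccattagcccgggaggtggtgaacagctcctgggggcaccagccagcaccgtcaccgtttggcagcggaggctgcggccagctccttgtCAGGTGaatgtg
LINC01985: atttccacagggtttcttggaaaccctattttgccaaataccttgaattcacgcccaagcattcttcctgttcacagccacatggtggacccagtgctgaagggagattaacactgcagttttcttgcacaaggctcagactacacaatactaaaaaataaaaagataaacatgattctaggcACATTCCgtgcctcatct
PITX1-AS1: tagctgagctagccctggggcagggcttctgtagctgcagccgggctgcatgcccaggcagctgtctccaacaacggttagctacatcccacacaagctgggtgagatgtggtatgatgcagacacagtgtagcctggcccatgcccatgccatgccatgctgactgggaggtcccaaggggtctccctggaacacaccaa
DANCR: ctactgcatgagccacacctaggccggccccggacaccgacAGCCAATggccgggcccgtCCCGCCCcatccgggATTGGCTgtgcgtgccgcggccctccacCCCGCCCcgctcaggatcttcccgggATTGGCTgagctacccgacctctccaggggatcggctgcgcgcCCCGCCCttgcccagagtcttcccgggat

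The windows differ in what they hold. LINC00607 and LINC01036 each had 1 AP-1 match, beside an E-box and a TEAD match respectively, and DLEU1 had an E-box, an AP-1 and a SMAD match. LINC02970 had 2 E-box matches, 1 on each strand, and LINC01985 a single TEAD match. MYOSLID and PITX1-AS1 had no match, which says only that these letters were not in this window. DANCR had 3 SP/KLF and 3 NF-Y matches, a GC content of 71.6% and 19 CpG dinucleotides, against 0 CpG in the DLEU1 window and 1 in that of MYOSLID.

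To see when lncRNA promoters were open, the share of regions with a peak was taken in each list. In solvent 2771 regions had one, or 74.1% (95% Wilson interval 72.6 to 75.5%). After TGFβ1 the share was 88.8% at 6 h (3322 regions), then 94.1% at 24 h (3519), and 91.9% when 72 h had passed (3439 regions, 91.0 to 92.8%). Protein-coding promoters were at 85.4, 94.8, 95.9 and 92.3%, and distal regions at 59.0, 80.3, 90.4 and 90.0%. lncRNA promoters thus lay between both sets in solvent and at 6 and 24 h, and at 72 h their interval included the share of protein-coding promoters. Wilson intervals here cover counting error only, and neighbouring regions are not independent. The lists differed in length (86209 solvent peaks against 107656, 118433 and 116720 under TGFβ1, in order of time), and the shares of every set move with that length. With lists of equal length, each cut to the 86209 peaks of largest AUC (a measure of peak strength), lncRNA promoters were at 87.7, 89.5, 87.7 and 87.3% of 3158 regions, so that the rise from solvent to 72 h was no longer seen. Deeper reads and more open chromatin in a TGFβ1 list cannot be told apart here, nor can more open cells and wider opening per cell. As a share of each list's own peaks, lncRNA promoters made up 3.41% for solvent (3.29 to 3.53%) and 3.13, 3.06 and 3.04% for the TGFβ1 lists (2.94 to 3.14% in the last). Of solvent peaks a somewhat larger part thus lay at lncRNA promoters than of TGFβ1 peaks. Protein-coding promoters went from 24.1 to 18.8% of the peaks between solvent and 72 h, and distal regions from 54.9 to 60.9%.

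The strength of a peak was taken from its deposited AUC, in which the peak caller adds up significance over the bases of a peak, counting only what exceeds its limit, and AUC was summed per region and list. lncRNA promoters with a peak had a median AUC of 1006 in the solvent list and of 1167, 1140 and 1099 in the TGFβ1 lists, in order of time. Protein-coding promoters had medians of 2025, 2366, 2204 and 2143, and distal regions of 616, 707, 703 and 689. The quartiles of lncRNA promoters were 490 and 2054 in solvent, so that the sets overlapped widely. In every list lncRNA promoters were narrower than protein-coding ones, with a median peak length of 473 bp against 844 bp in solvent, and wider than distal regions at 308 bp. Per base the AUC differed less, at 2.14 in solvent for lncRNA promoters against 2.401 for protein-coding promoters and 1.95 for distal regions. Among regions of genes with a symbol, chosen here after their values were seen, the largest solvent AUC belonged to MIR23AHG, the host of a microRNA cluster, at 17280, followed by TRIM7-AS2 at 15129 and GASAL1 at 11756. NEAT1, the scaffold of nuclear paraspeckles, was at 9550 and TALAM1, antisense to MALAT1, at 9394. All of these had a peak in every list, and at 72 h their AUC was 20758, 15451, 14009, 10771 and 10876 in that order. Each region held the TSS it was named for. In the same order the summit lay at 3634, -1, -72, -1377 and -254 bp from that TSS, so at MIR23AHG and NEAT1 the highest point was not at the start site.

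Taking the 4 lists together, 2680 lncRNA promoters (71.6%, against 62.6% of all regions) had a peak in every list. A further 408 (10.9%, 9.95 to 11.9%) had a peak at all 3 TGFβ1 times and none in solvent, where 14.3% of all regions, 5.39% of protein-coding promoters and 17.0% of distal regions did so. Peaks at 24 and 72 h only were found for 217 regions (5.80%, against 7.55% of all regions) and at 72 h only for 106 (2.83% against 4.61%). They were found at 24 h only for 81 (2.17% against 3.42%), at 6 and 24 h only for 79 (2.11% against 2.39%) and at 6 h only for 59 (1.58% against 2.03%). A solvent peak with none at 72 h was the rarer pattern, with 50 regions that kept a peak up to 24 h, 22 up to 6 h only and 10 with a peak in solvent alone, and 1 region with peaks in solvent and at 24 h. Of the others, 20 had peaks at 6 and 72 h only (0.535%, against 0.592% of all regions). A peak was lacking at 24 h alone for 4 (0.107% against 0.189%), at 6 h alone for 3 (0.0802% against 0.0797%) and at both for 1 (0.0267% against 0.0332%).

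For each TGFβ1 time, gained regions (a peak in the TGFβ1 list and none in solvent) and lost regions (the reverse) were counted among those with a peak in either list. At 6 h 566 of 3337 lncRNA promoters were gained, which was 17.0% (15.7 to 18.3%) against 22.9% of all regions. At 24 h 785 of 3556 were gained, 22.1% (20.7 to 23.5%) against 29.8%. At 72 h 751 of 3522 were gained, 21.3% (20.0 to 22.7%) against 29.3%. Protein-coding promoters were gained in 10.2, 11.7 and 9.29% of cases and distal regions in 27.0, 35.6 and 36%. A smaller share of lncRNA promoters than of all regions was therefore gained, and a larger share than of protein-coding promoters, by 6.72, 10.3 and 12 percentage points at 6, 24 and 72 h.

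Losses were few. At 6 h 15 lncRNA promoters were lost (0.450%, against 0.551% of all regions), at 24 h 37 (1.04% against 1.31%) and at 72 h 83 (2.36% against 2.43%). The interval at 72 h, 1.91 to 2.91%, included the shares of all regions and of protein-coding promoters (1.97%). Gained and lost regions were weak: at 72 h the median AUC was 365 for gained and 265 for lost lncRNA promoters, against 1503 for those with a peak in both lists, and the smallest AUC in the lists was 200. The excess of gains over losses was smaller at 6 h, and absent at 24 and 72 h, when each list was cut to its 86209 peaks of largest AUC, which by construction moves gains and losses closer together. Then 184, 244 and 290 lncRNA promoters were gained and 127, 243 and 303 lost at 6, 24 and 72 h. These were 6.23, 8.10 and 9.48% gained and 4.30, 8.07 and 9.91% lost. Of all regions 8.69, 11.9 and 13.8% were gained and 5.44, 9.47 and 11.6% lost, so that over all regions gains still exceeded losses at each time. The excess over protein-coding promoters in the share gained was 3.10, 5.00 and 6.39 percentage points.

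Ratios of AUC were taken where both lists had a peak. Over all regions the median log2 ratio to solvent was 0.51, 0.50 and 0.39 in order of time, and AUC was not scaled between lists, so ratios are given relative to these medians ("centred"). lncRNA promoters had a centred median of -0.02 at 6 h (interval of the median -0.03 to 0.00), -0.03 at 24 h and -0.05 at 72 h (-0.06 to -0.03), in 2756, 2734 and 2688 regions. Protein-coding promoters were at -0.09, -0.18 and -0.20 and distal regions at 0.06, 0.11 and 0.13. The difference of lncRNA from protein-coding promoters was 0.08, 0.15 and 0.16 in log2 units. It was smaller by other measures of strength, at 0.0215, 0.0664 and 0.0759 by AUC per base and 0.0270, 0.0576 and 0.0517 by −log10 q at the summit. lncRNA promoters thus followed a course between both sets, near that of all regions. The same order was found within classes of similar strength, for example at 72 h among regions with a mean AUC of 800 to 1600, where the centred medians were 0.04 for lncRNA promoters, -0.09 for protein-coding promoters and 0.16 for distal regions. Steps between successive lists were alike, with centred medians of -0.02 from 6 to 24 h and -0.01 from 24 to 72 h for lncRNA promoters, against -0.11 and -0.04 for protein-coding promoters.

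Few lncRNA promoters lay far from this median. At 6 h 64 were at least 2-fold higher after centring (2.32%, against 2.83% of all regions) and 8 at least 2-fold lower (0.290%, against 0.271%). At 24 h 142 were higher (5.19% against 6.4%) and 32 lower (1.17% against 1.32%). At 72 h 155 were higher (5.77% against 7.93%) and 39 lower (1.45% against 1.83%). With AUC divided by peak length 18, 42 and 51 regions were at least 2-fold higher and 22, 20 and 23 at least 2-fold lower at 6, 24 and 72 h.

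lncRNA and protein-coding promoters were then compared in their sequence at the summit. CpG-rich promoters often belong to genes used in many tissues, and CpG-poor ones more often to genes used in few cell types. A window was called CpG-rich when its GC content was at least 50% and its observed over expected CpG ratio at least 0.6. This was so for 719 lncRNA promoters, or 19.2% (18.0 to 20.5%), against 53.0% of protein-coding promoters and 2.05% of distal regions. The median GC content was 51.2, 62.2 and 46.3% in the 3 sets. lncRNA promoters thus lay between both sets in base composition.

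Both kinds of lncRNA promoter behaved differently in the lists, a split made after the data had been seen. CpG-rich lncRNA promoters were gained in 8.22% of cases at 6 h, 7.69% at 24 h and 5.95% at 72 h (4.42 to 7.97%). CpG-poor ones were gained in 19.3, 25.6 and 25.1% (23.5 to 26.7%). The centred median log2 ratio at 72 h was -0.19 for CpG-rich (-0.20 to -0.17) and 0.03 for CpG-poor lncRNA promoters (0.01 to 0.06). At 72 h 1 of the 644 CpG-rich regions with a peak in both lists was at least 2-fold higher, against 154 of 2044 CpG-poor ones. Of the 83 lost regions 4 were CpG-rich (4.82%). Over all regions 1.03% of those at least 2-fold higher and 3.46% of those lost were CpG-rich, so this was not particular to lncRNA promoters. The same split, CpG-rich first, gave 2.04 and 18.1% gained at 72 h within protein-coding promoters and 9.25 and 36.5% within distal regions. The centred medians at 72 h were -0.23 and -0.10 within protein-coding promoters, and -0.11 and 0.14 within distal regions. At equal CpG class lncRNA promoters therefore still lay above protein-coding promoters, and CpG-poor ones lay below CpG-poor distal regions. The CpG classes were not matched for width or strength. CpG-rich lncRNA promoters had a median width of 814 bp and CpG-poor ones of 438 bp. By strength alone, lncRNA promoters with a mean AUC of at least 3200 were at -0.18 at 72 h and those of 400 to 800 at 0.12. Whether CpG content matters at equal strength was not tested.

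**Figure D1:**
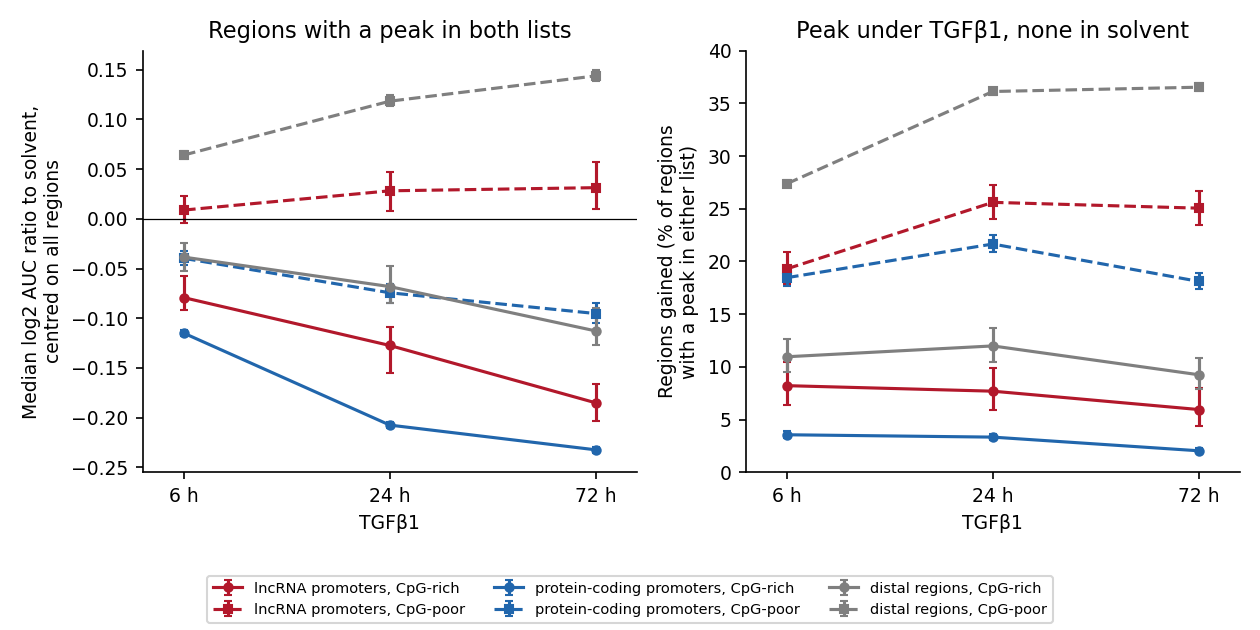
Left, median log2 AUC ratio to solvent, centred on all regions, at 6, 24 and 72 h for CpG-rich (solid lines) and CpG-poor (dashed lines) regions of the 3 sets, with 95% intervals of the median. Right, percentage gained with 95% Wilson intervals. CpG-rich lncRNA promoters went down to -0.19 and CpG-poor ones stayed near 0.03, each above the protein-coding line of the same CpG class. The classes are not matched for width or strength.

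Position also went with the share gained. Where a lncRNA TSS lay inside the region, 13.7% were gained at 72 h (12.3 to 15.4%), and where it lay outside but within 1 kb, 30.3% (28.1 to 32.5%). The centred medians were -0.09 and 0.04. These classes were not matched for width or strength, and a wider region more readily holds a TSS. lncRNA promoters with a peak in every list had a median width of 652.5 bp and those gained at 72 h of 258 bp. Whether position matters at equal width was not tested. By distance from protein-coding genes, 16.1% were gained at 72 h among lncRNA promoters 5 to 20 kb from the nearest protein-coding TSS, 21.4% at 20 to 100 kb and 26.8% beyond 100 kb. Distal regions showed the same order at a higher level, with 31.5, 34.7 and 43.4%. In each distance class lncRNA promoters were gained less often than distal regions. At the edges of the definition, regions 500 to 1000 bp from a lncRNA TSS were gained at 72 h in 28.7% of cases and those at 1000 to 1500 bp in 33.1%, and regions with a protein-coding TSS at 5 to 6 kb in 14.9% and at 4 to 5 kb in 17.9%.

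By gene class, 21.7% of 884 regions of LINC genes (intergenic lncRNAs with a LINC symbol), 25.1% of 295 antisense regions and 22.4% of 1880 regions of genes with an identifier only were gained at 72 h. Hosts of microRNAs were gained in 6 of 62 cases (9.68%, 4.51 to 19.5%) and hosts of small nucleolar RNAs in 4 of 25 (16.0%, 6.40 to 34.7%), with wide intervals. Genes with another symbol were gained in 14.0% of 342 cases (10.8 to 18.1%). The interval of the microRNA hosts ended below those of antisense and identifier-only regions, which began at 20.5 and 20.6%, and overlapped that of LINC genes (19.1 to 24.6%). The 64 microRNA host regions came from 31 genes and are not independent, so these intervals are no test between classes.

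**Figure D2:**
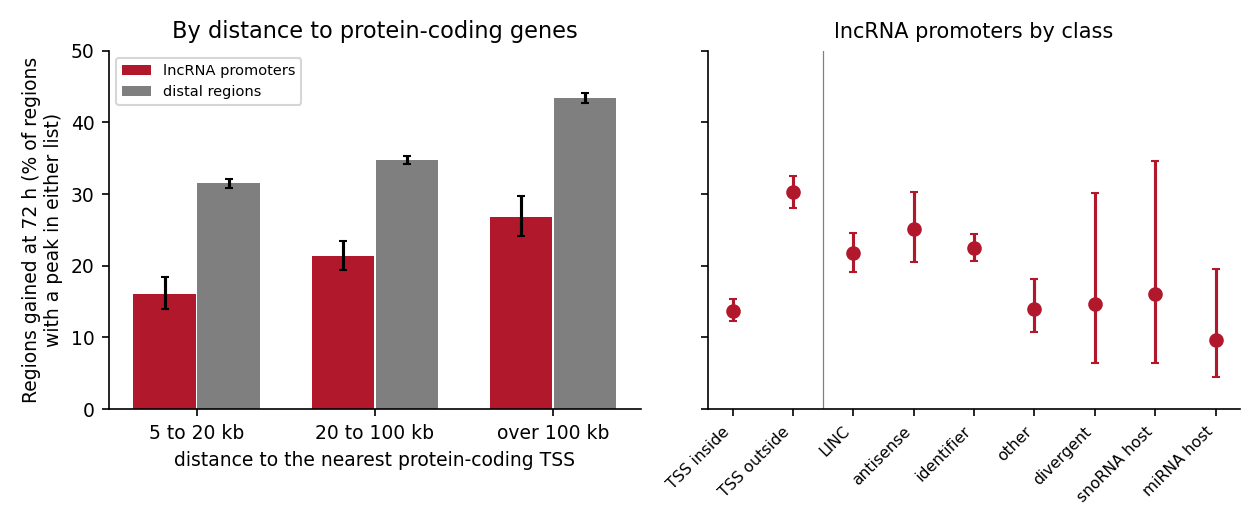
Percentage of regions gained at 72 h among those with a peak in either list, with 95% Wilson intervals. Left, lncRNA promoters and distal regions by distance to the nearest protein-coding TSS (16.1 to 26.8% and 31.5 to 43.4%). Right, lncRNA promoters by whether the TSS lies inside the region (not matched for width) and by gene class, with 13.7% for a TSS inside and 30.3% outside.

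Motifs were compared in windows of the same length around every summit. An AP-1 match, the site of JUN and FOS proteins, was found in 29.4% of lncRNA promoters (28.0 to 30.9%), against 32.3% of all regions, 13.3% of protein-coding promoters and 37.8% of distal regions. SP/KLF matches were found in 11.3% (8.17% of all regions), against 30.9% and 2.51%, and ETS matches in 3.48% (2.56% of all regions), against 8.87% and 1.03%. E-boxes differed little between sets, at 17.9, 17.1 and 17.5%, with 17.9% of all regions. TEAD matches were in 4.38% (4.85% of all regions), NF-Y in 3.96% (3.27%), SMAD in 0.321% (0.295%) and C/EBP in 2 regions (0.0535%, against 0.108%). lncRNA promoters thus lay between protein-coding promoters and distal regions in AP-1, SP/KLF and ETS matches.

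The motifs differed with the course. AP-1 was found in 36.5% of the 408 lncRNA promoters with a peak at every TGFβ1 time and none in solvent (32.0 to 41.3%), in 29.4% of those with a peak in every list, in 47.7% of the 155 that were at least 2-fold higher at 72 h (40.03 to 55.6%), in 4 of the 83 lost at 72 h and in 3 of the 39 at least 2-fold lower. For all regions the shares were 40.1, 31.4, 47.2, 7.72 and 9.27% in that order. The E-box went the other way, with 8.39% in the regions at least 2-fold higher (4.97 to 13.8%), 19.3% in those with a peak in every list and 15 of 39 in those at least 2-fold lower (38.5%, 24.9 to 54.1%). For all regions these shares were 12.7, 18.9 and 31.0%. The shares at lncRNA promoters were close to those of all regions in each class, so they are a description of lncRNA promoters and not particular to them.

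The lncRNA genes named next come from a rule that used these AUC values, so the values are a description. Many of the regions lay beside the TSS and did not hold it. At LINC02376, PITX1-AS1, AQP4-AS1, SFTA3 and EGFLAM-AS3 the TSS was 484 to 606 bp outside the region. At CCAT2, VAC14-AS1 and the second DLEU1 region it was 823 to 981 bp outside. Among genes with a symbol, the 10 regions of largest AUC at 72 h with a peak at every TGFβ1 time and none in solvent were taken as opened. LINC00964, on chromosome 8, was at 1336, 2224 and 2769 at 6, 24 and 72 h. MYOSLID, a lncRNA known from smooth muscle cells, was at 1178, 2055 and 2143, its TSS lying 394 bp outside the region. LINC02376 was at 844, 1656 and 2068. These 3 regions were higher at each later time.

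LINC00607, with a TSS inside the region and at 224570 bp from the TSS of FN1, the fibronectin gene, was at 866, 1616 and 1746. CFAP418-AS1 was at 1162, 1838 and 1696. LINC01765 was at 804, 1553 and 1334. The last 2 were lower at 72 h than at 24 h.

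LINC01036 was at 561, 1181 and 1429. HAS2-AS1, antisense to the hyaluronan synthase gene HAS2, was at 492, 1131 and 1353, in a region 445 bp from its TSS. LINC01173 was at 682, 967 and 1294. An opened region of LINC00511, whose nearest protein-coding TSS is that of SOX9, was at 909, 1701 and 1681. All 10 opened regions had a higher AUC at 24 h than at 6 h, and none was CpG-rich. All 10 were also gained with lists of equal length and with a minimum AUC of 400. Both alternatives only remove weak peaks and these regions were chosen as strong at 72 h, so this outcome was set by the choice. Beside LINC00511, 2 opened regions each were found for LINC00598, LINC00880, LINC01816, LINC02777 and MIR4435-2HG.

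Among regions with a peak in every list and a mean AUC of at least 1000, the 8 with the largest ratio of 72 h to solvent were HRAT17, DLEU1 (at 2 places), SFTA3, LINC01363, EGFLAM-AS3, LINC02777 and CASC15. HRAT17 had the largest, from 218 with solvent to 2828, 3509 and 3904 after 6, 24 and 72 h, a log2 ratio of 4.16 before and 3.77 after centring. The solvent peak there was barely above the smallest AUC of 200, so that the ratio depends on a weak peak. Both DLEU1 regions, LINC01363, SFTA3 and EGFLAM-AS3 also had weak solvent peaks, at 245 to 293, and the same limit holds for their ratios.

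DLEU1, named for a region deleted in lymphocytic leukaemia, had its first such region over a TSS at 245, 2071, 3042 and 3168 and a second, whose summit window with the AP-1, E-box and SMAD matches is shown above, at 266, 2180, 2399 and 1899. The second was highest at 24 h. CASC15, whose nearest protein-coding TSS is that of SOX4, was at 696, 3152, 3411 and 3312, and LINC02777, at 145435 bp from the JUN gene, at 483, 2778, 3348 and 2800. In both, most of the difference was there by 6 h.

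SFTA3 was at 293, 1182, 2160 and 2669, LINC01363 at 280, 1812, 2007 and 2317 and EGFLAM-AS3 at 293, 2578, 2547 and 2418. SFTA3 is also the symbol of a protein-coding gene in the annotation, whose TSS lay 40217 bp away. For all 8 the log2 ratio was smaller when measured by the −log10 q at the summit, for example 1.02 for HRAT17 and 0.84 for CASC15, with the same sign. By AUC per base it was smaller for all 8 too, from 0.62 for CASC15 to 2.26 for SFTA3, with 1.32 for HRAT17.

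Closed regions, with a peak in solvent and none at 72 h, were weaker. PITX1-AS1, inside MACROH2A1, was at 780 with solvent and 608 and 387 after 6 and 24 h, and LINC02688, at 12610 bp from the TSS of the mucin gene MUC6, at 689, 929 and 414. LINC02289 was at 580 and 310 and ATP2B2-IT1 at 343 and 260, both without a peak from 24 h. These 4 had their lowest value in the last list with a peak.

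LINC01353 was at 596, 534 and 573, VAC14-AS1 at 474, 475 and 309 and LINC01566 at 426, 607 and 433. LINC00824, at 396, 728 and 866, and CNTN4-AS1, at 369, 495 and 528, were highest at 24 h, just before the list without a peak. With a minimum AUC of 400, 6 of the 10 closed regions remained lost at 72 h, those with a solvent AUC above 400. With lists of equal length all 10 did, since that cut leaves the solvent list whole and only shortens the TGFβ1 lists. Both outcomes follow from the values by which the regions were chosen.

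Other regions had falling courses with a peak in every list. LINC01985, whose nearest protein-coding TSS is that of the TGFβ receptor gene TGFBR2 at 87751 bp, was at 1912 with solvent and 1460, 451 and 422 after 6, 24 and 72 h, a centred log2 ratio of -2.57 at 72 h. AQP4-AS1 was at 1210, 1756, 704 and 378 and so was highest at 6 h. LINC01127, at 30268 bp from the decoy receptor gene IL1R2, was at 1955, 1946, 1454 and 650, and its closed region, which lies beside this one, at 390, 471 and 210 with no peak at 72 h.

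LINC02970, whose window holds E-box matches on both strands, was at 4447, 5438, 4567 and 2473. CCAT2, in a region 848 bp from its TSS and inside POU5F1B, was at 4619, 4410, 2154 and 2654. LINC01975 was at 1333, 1539, 1089 and 767. LINC02139, at 1207, 1290, 1090 and 697, and RBMS3-AS3, at 1630, 2110, 1260 and 976, had the smallest differences. For LINC02139 and RBMS3-AS3 the sign at 72 h turned when AUC was divided by peak length. By −log10 q the falls at 72 h were smaller throughout, with a log2 ratio (not centred) of -0.78 for LINC01985, -0.64 for AQP4-AS1 and -0.75 for LINC01127, of -0.22 for LINC02970 and of -0.36 for LINC01975. By that measure the fall at CCAT2 was no longer seen, at -0.025 against -0.80 by AUC, and RBMS3-AS3 turned in sign.

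**Figure D3:**
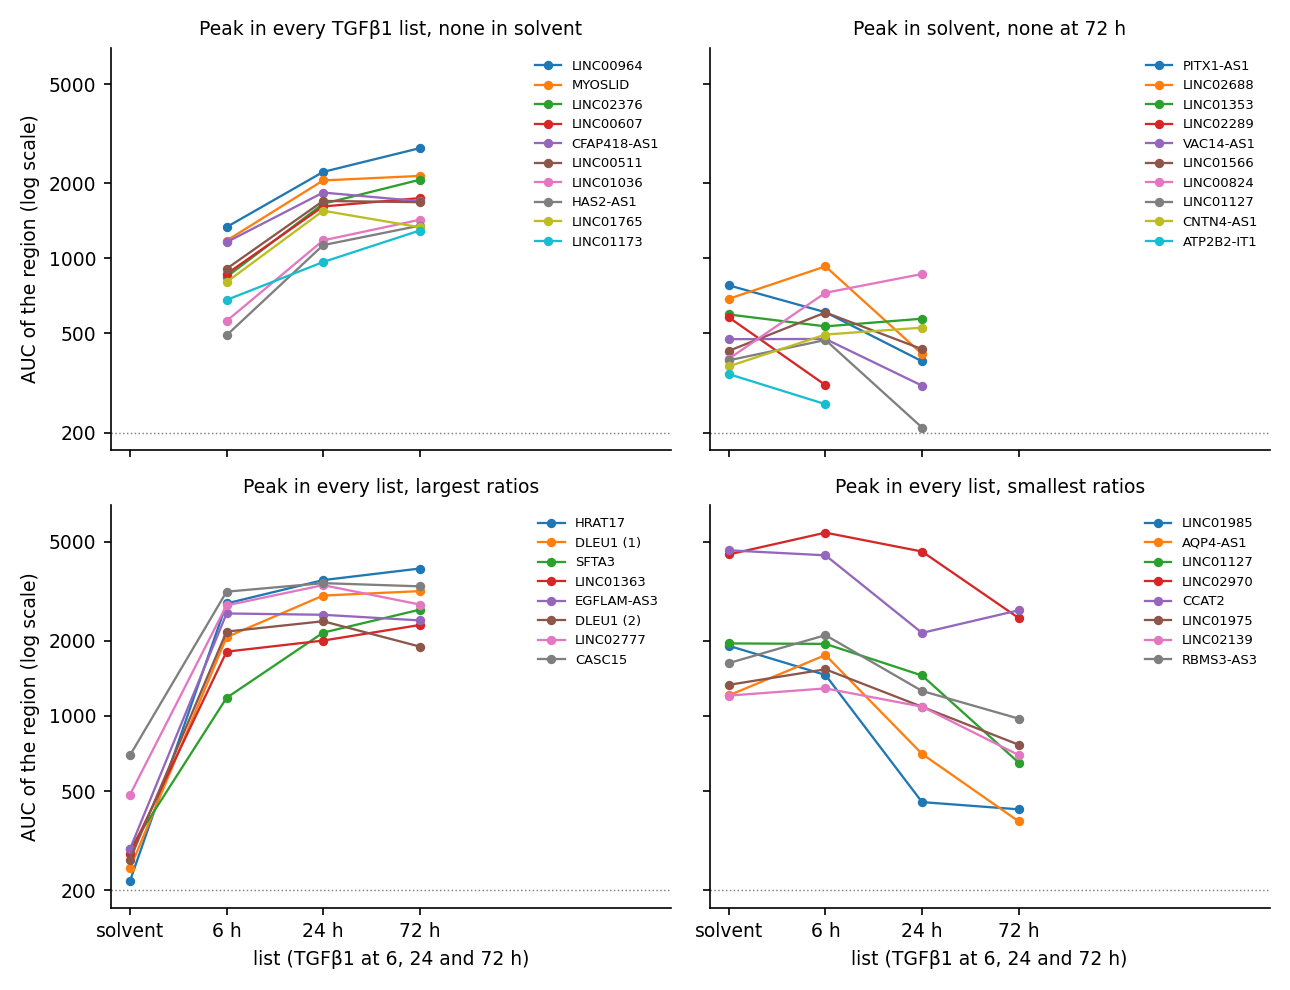
AUC on a log axis of the named lncRNA promoter regions in solvent and at 6, 24 and 72 h of TGFβ1, in panels for regions opened, closed, highest in ratio and lowest in ratio at 72 h. A missing point means that the list held no peak, and the dotted line is the smallest AUC in the lists, 200. HRAT17 went from 218 to 3904 and LINC01985 from 1912 to 422.

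A peak at 6 h and none in solvent or at 72 h was found at 138 regions, with a median AUC of 259.6 at 6 h. They had peaks at 6 and 24 h only (2.11% of lncRNA promoters, against 2.39% of all regions) or at 6 h only (1.58% against 2.03%). Both shares were below those of all regions. Those named here had the largest AUC at 6 h among genes with a symbol. LINC02747 was at 586 at 6 h and 523 at 24 h, PPP1R26-AS1 at 402 and 420, NAV2-AS5 at 400 and 294 and PLAC9P1 at 393 and 586. A second LINC00511 region was at 544 at 6 h and had no peak at 24 h. These values lay between 294 and 586, below the median of all lncRNA promoters with a peak (1167 at 6 h).

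Of 54 lncRNAs known in epithelial cells, in EMT or as hosts of small RNAs, 29 had a lncRNA promoter region nearest to a TSS of theirs, 103 regions in all, and 25 had none. Several of the 25, such as ZEB1-AS1, ZEB2-AS1, TGFB2-AS1 and GAS5, had every TSS within 5 kb of a protein-coding TSS and were outside the set by its definition. Others, such as HOTAIR, MIR155HG, MEG3 and FENDRR, had no member region nearest to their TSSs. Of the 103 regions 86 had a peak in every list, 87 in solvent and 95 at 72 h. Of those with a peak in solvent or at 72 h, 9 were gained and 1 was lost, against 29.3% and 2.43% of all such regions. Among 86 with a peak in both lists 2 were at least 2-fold higher and 2 at least 2-fold lower at 72 h. Over all regions these shares were 7.93% and 1.83%. The median centred log2 ratio of the listed lncRNAs' regions was 0.01, -0.09 and -0.10 in order of time. Over all lncRNA promoters the medians were -0.02, -0.03 and -0.05.

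NEAT1, MALAT1, NORAD and DANCR, nuclear or cytoplasmic RNAs present in many cell types, had 10 regions, and 7 of them had peaks in all 4 lists. NEAT1 was at 9550, 11509, 10205 and 10771 at its strongest region and 6814, 7632, 5937 and 6727 at another, and MALAT1 at 3198, 4525, 4025 and 3399 at its strongest region. The other 3 MALAT1 regions were weak, and 1 of them, at 208, 235 and 209 with no peak at 72 h, was the single region of these lncRNAs that was lost. A second had a peak at 6 and 24 h only, at 264 and 227, and the third at 6 h only, at 315. NORAD, which binds PUMILIO proteins, was at 1839, 2458, 2469 and 1954, and DANCR at 5041, 5999, 6018 and 5861. Of the 7 regions with a peak in every list 6 lay below the common shift at 72 h, with centred log2 ratios of -0.22 for the first NEAT1 region and -0.17 for DANCR.

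The 13 hosts of microRNAs among these lncRNAs had 37 regions, with peaks in all 4 lists at 33 and no solvent peak at 4. Their solvent AUC ran from 471 to 17280 with a median of 1438, against 1006 over all lncRNA promoters. MIR205HG, host of the epithelial microRNA whose name it bears, was at 8028, 9687, 9081 and 9367 at its stronger region and MIR17HG at 8119, 9985, 9283 and 8607. MIR31HG was at 1395, 2304, 2181 and 2236, a centred log2 ratio of 0.29 at 72 h. The strongest of 10 MIR100HG regions was at 2421, 4305, 4661 and 4503, a centred log2 ratio of 0.50, whereas 6 of the 9 with a ratio were below the common shift, down to -0.61. MIR4435-2HG was the list's case of a gene with opened regions only, both weak, at 223, 264 and 208 and at 207, 336 and 437. Of the 33 host regions with a ratio 10 lay above the common shift at 72 h and 23 below, with a median of -0.14 and a range of -1.20 to 0.80.

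Other lncRNAs of the list differed among their own promoters. LINC00460 had its strongest region at 3620, 4836, 4834 and 4430 and a weak one at 227, 586, 845 and 956, a centred log2 ratio of 1.68 at 72 h, past the 2-fold limit. MIR29B2CHG had a region at 813, 766, 644 and 466 (centred -1.20) and another at 574, 951, 1155 and 1313 (centred 0.80), beside a CpG-rich one at 6613, 7966, 7685 and 7090. LINC00511 had 22 regions: 18 were open throughout, 2 were opened and 2 had a peak at 6 h only. PVT1, next to MYC, had 6 of its 7 regions in every list. LINC01133 was at 1653, 2657, 2749 and 2909 and H19, an imprinted lncRNA, at 587, 952, 670 and 1065 at its strongest region.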

How the data were processed

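Per the labels and the study's methods, the authors used Trimmomatic 0.38 for trimming and Bowtie2 2.4.5 for mapping to GRCh38, removed duplicates with Picard and mitochondrial or poorly mapped reads with SAMtools 1.4.1, and called peaks with Genrich 0.5 on both replicates of a condition together (versions from the submitters' processing notes). Peaks in blacklisted regions were removed. As deposited, the signal of a peak is its AUC, which grows with depth and with peak width, and lists were not brought to a common scale. Deposited summit values of −log10 q served only in alternatives, and those of −log10 p were not used. Lists were tied to conditions by their names. The labels give time 0 for solvent, whereas a legend of the study gives solvent for 72 h. The lists hold no reads or values per replicate, so the depth reached is unknown.

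Coordinates were used as deposited (GRCh38). Genes came from GENCODE 44, with every transcript start as a TSS. Where several lncRNA TSSs lay near a region, it was named for the gene with a symbol whose TSS was nearest the summit. AUC was summed per region and list. Intervals are 95% Wilson intervals for shares and order-statistic intervals for medians. Named genes were those of a list of 54 lncRNAs and, among genes with a symbol, the 10 opened, 10 closed, 5 transient, 8 highest and 8 lowest regions as defined beside their values. Members, lists and rules were chosen with earlier results of these data known. A further marker gene is not reported here. The scripts were tested on simulated data. Python 3.11.15, numpy 2.4.6, pandas 2.3.3, scipy 1.17.1, pysam 0.24.0, samtools 1.23.1 and matplotlib 3.10.9 were used.

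Alternatives were lists of equal length, an AUC of at least 400, peaks that share 50% or more of both lengths, other distance limits, a single TSS per gene (the gene record), distances from the summit, protein-coding promoters over 5 kb from every lncRNA TSS, other measures of strength, other centrings, a 1.5-fold limit and windows of 250 bp on either side of the summit. The CpG split and its variant with the wider window were added after seeing the data.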

Additional observations from a re-analysis of the deposited data

How the results depend on the processing

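No replicate could be left out, since both replicates of a condition were pooled in its list. No paired analysis was possible because the lists carry no replicate columns. None of the differences between sets below turned in sign under the alternatives in which they were taken. The difference between CpG classes was taken under a single alternative, the wider window, and kept its sign there. Shares and counts cannot turn in sign, but their order did change. With lists of equal length losses exceeded gains at 72 h (303 against 290), though not over all regions (11.6% lost against 13.8% gained). By AUC per base more regions were at least 2-fold lower than higher at 6 h (22 against 18). Of the shares, counts and differences, 86 of 158 values stayed within their limits (1.5 times for counts, the interval for shares and medians). The cause of the others was not tested, except where the alternative itself removes regions. With lists of equal length the share with a peak was 87.7% in solvent, 87.7% at 24 h and 87.3% at 72 h, gains were 184, 244 and 290, losses 127, 243 and 303, and the excess over protein-coding promoters in the share gained 3.10, 5.00 and 6.39 points. With a minimum AUC of 400, losses were 5, 16 and 41 and the differences in median log2 ratio 0.0636, 0.12 and 0.14. Within 500 bp of a TSS, shares were 76.7, 90.0, 94.96 and 93.3% and losses 9, 23 and 52. With a single TSS per gene, shares were 76.9, 90.2 and 92.9% in solvent and at 6 and 72 h, the excess gained 8.96, 12.9 and 14.4 points, and the median differences at 24 and 72 h 0.13 and 0.12. With an overlap of at least 50%, losses were 207, 246 and 268 and the excess gained at 24 and 72 h 12.2 and 13.7 points. The median differences from protein-coding promoters were 0.0215, 0.0664 and 0.0759 by AUC per base, 0.0270, 0.0576 and 0.0517 by −log10 q, and 0.0293, 0.0725 and 0.10 within strength classes. Counts past 2-fold were 258, 410 and 340 higher and 0, 12 and 16 lower without centring, and 5 and 24 lower at 6 and 72 h when centred on protein-coding promoters. By AUC per base they were 18, 42 and 51 higher and 22, 20 and 23 lower. At 1.5-fold they were 202, 339 and 354 higher and 43, 116 and 152 lower. In windows of 250 bp on either side motif shares were 33.7% for AP-1, 37.0% for the E-box, 17.6% for SP/KLF and 6.28% for ETS. Against protein-coding promoters over 5 kb from every lncRNA TSS the SP/KLF difference was -17.8 points. Of the named regions, LINC02139 had a log2 ratio at 72 h of 0.67 and RBMS3-AS3 of 0.013 by AUC per base, and RBMS3-AS3 of 0.039 by −log10 q, all against negative values by AUC. The CpG difference was -0.22 at 72 h and stayed within its interval in the wider window, at -0.21. It was not taken by other measures of strength or with other lists. What depth limits is unknown, since the lists hold no reads.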

Other observations

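Among lncRNA genes with an identifier only, the 3 opened regions of largest AUC at 72 h and the 3 closed ones of largest solvent AUC were as follows. ENSG00000267780, on chromosome 18, was at 840, 1526 and 2024 at 6, 24 and 72 h with no solvent peak, ENSG00000250274 at 1394, 2059 and 1997, and ENSG00000287932, inside the CDK6 gene body, at 464, 1258 and 1839. Among closed regions, ENSG00000231864, inside SAPCD2, was at 830 in solvent, 615 at 6 h and 276 at 24 h, ENSG00000223356 at 700 in solvent and 449 at 6 h, and ENSG00000258455 at 582, 673 and 229, each with no peak at 72 h.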
